A study of Mus musculus with 10 samples.

Results

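The genes described here encode the machinery of oxidative phosphorylation: the subunits of respiratory complexes I to IV and of ATP synthase (complex V), cytochrome c, and the assembly factors of complex I whose symbols begin with Ndufaf. They were chosen by symbol and by no measured value, as protein coding rows that start with Nduf, Uqcr, Atp5, Cox4 to Cox8, mt-Nd, mt-Co, mt-Atp or mt-Cytb, or that are Sdha to Sdhd, Cyc1 or Cycs. This gave 109 of the 54446 gene rows, 96 encoded in the nucleus and 13 in mitochondrial DNA. Of these, 92 nuclear and 10 mitochondrial genes had enough counts to be tested, beside 15181 genes tested in all.

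RNA was sequenced from smooth muscle cells taken from the aorta, freed with collagenase and grown in primary culture to passage 2. The 5 WWv libraries came from KitW/Wv mice, which carry the alleles W and Wv of Kit, the gene of the receptor tyrosine kinase c-Kit, and the 5 WT libraries came from wild type mice. No treatment other than culture is listed for either group. The labels name 5 mice of each genotype and do not tie a library to a mouse, so that p-values measure the spread between libraries, and the sources used here give no age, sex or genetic background. Both alleles are carried by every cell of the animal, so the mutation was not limited to smooth muscle, and the cells had been in culture before RNA was taken.

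Oxidative phosphorylation passes electrons from NADH and succinate through complexes I and II to ubiquinone, then through complex III, cytochrome c and complex IV to oxygen. Complexes I, III and IV pump protons across the inner mitochondrial membrane, and complex V uses the gradient to make ATP. The core of each pump is encoded in mitochondrial DNA, which is transcribed as long RNAs that are then cut, while most subunits, all of complex II and all assembly factors come from nuclear genes spread over many chromosomes. Several subunits of complex IV exist as isoforms made in different tissues or under low oxygen. Arterial smooth muscle makes ATP both by this route and by glycolysis.

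Library totals ran from 42040255 to 53863661 counts. The smooth muscle markers of the cells took 1.66 to 1.95% of the counts in WWv and 1.02 to 1.34% in WT, with no overlap. Of these markers, 5 of 8 were called higher in WWv, beside 12.8% of all tested genes. Kit itself had 2.09, 0.929, 1.71, 3.01 and 2.25 CPM (counts scaled to library size and composition) in WWv libraries 1 to 5, against 3.19, 4.92, 4.08, 4.40 and 4.02 CPM in WT libraries 1 to 5, a log2 fold change of −1.04 ± 0.25 (SE, adjusted p = 0.0122). One library stood apart: WT 2 held 0.0350% of its counts in endothelial markers, against at most 0.0101% in WT 1, 3, 4 and 5; the WWv libraries held 0.00875 to 0.0207%. Among the 92 tested nuclear members, WT 2 was the highest of the 5 WT libraries for 40 and the lowest for 31.

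Each sequence shown next was chosen for a reading of the values. The first pair is the start of mt-Co2, a catalytic subunit of complex IV, at chrM:7013-7072 on the plus strand, and the start of Gm28661, an unprocessed pseudogene at chr1:24615506-24615565 on the minus strand, both from the GENCODE M21 transcripts on GRCm38. They are shown because several mitochondrial genes described below have such copies in the nuclear genome. The 60 bases held 0 differences, so no letter is in capitals.
mt-Co2: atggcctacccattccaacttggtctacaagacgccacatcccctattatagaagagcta
Gm28661: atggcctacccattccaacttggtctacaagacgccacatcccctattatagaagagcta

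The promoter sequences are the 250 bases before the RefSeq transcription start on GRCm38.p6, all on the minus strand. They belong to Cox6b2 (chr7:4753095-4753344), which was lower in WWv, to its paralogue Cox6b1 (chr7:30626115-30626364), which was not called, and to Uqcr10 (chr11:4704345-4704594) and Cox6a1 (chr5:115348959-115349208), the members called higher. Capitals mark matches to the motifs of NRF1 (GCGCA, any base, then GCGC) and GABP (CCGGAAG), factors known to bind promoters of respiratory genes, on either strand.
Cox6b2: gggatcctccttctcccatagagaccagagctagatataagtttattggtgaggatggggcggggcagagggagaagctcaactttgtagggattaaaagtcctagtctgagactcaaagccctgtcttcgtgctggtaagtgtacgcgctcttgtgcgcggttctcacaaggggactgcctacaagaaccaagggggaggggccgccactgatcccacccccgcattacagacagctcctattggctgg
Cox6b1: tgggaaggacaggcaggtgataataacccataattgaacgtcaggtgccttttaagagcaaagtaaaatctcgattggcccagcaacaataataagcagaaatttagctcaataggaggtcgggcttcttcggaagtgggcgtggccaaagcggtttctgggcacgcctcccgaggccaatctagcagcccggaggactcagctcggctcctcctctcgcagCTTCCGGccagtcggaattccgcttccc
Uqcr10: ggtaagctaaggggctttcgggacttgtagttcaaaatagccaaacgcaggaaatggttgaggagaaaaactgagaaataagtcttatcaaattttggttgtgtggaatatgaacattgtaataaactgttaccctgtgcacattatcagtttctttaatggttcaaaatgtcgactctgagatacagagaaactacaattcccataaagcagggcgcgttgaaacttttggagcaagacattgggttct
Cox6a1: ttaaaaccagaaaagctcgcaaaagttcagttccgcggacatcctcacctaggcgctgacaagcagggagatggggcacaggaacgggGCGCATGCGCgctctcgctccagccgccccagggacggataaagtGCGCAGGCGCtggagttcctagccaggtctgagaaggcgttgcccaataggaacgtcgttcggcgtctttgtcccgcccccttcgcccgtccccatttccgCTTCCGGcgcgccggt

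The Cox6a1 window held 2 NRF1 matches and 1 GABP match, the Cox6b1 window held 1 GABP match, and no match to either lay in the Cox6b2 and Uqcr10 windows. RefSeq promoter entries were at hand for 75 of the 95 nuclear member symbols, with 80 promoters, counted from 250 bases before to 50 after the start. The NRF1 motif lay in 25.0% of them, against 9.45% of the promoters of tested protein coding genes and 4.6% of all promoters. A GABP match was found in 22.5% of member promoters (16.5% and 8.86% in the same 2 sets), and a match to the YY1 motif AANATGGC in 22.5% (7.89% and 6.05%). The estrogen-related receptor motif TCAAGGTCA was found in 2.5% (0.257% and 0.423%), and the core of the hypoxia-inducible factor site, ACGTG, in 23.8% (25.0% and 19.6%). No motif in this search contains another, and a match describes the letters and not a bound site.

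The nuclear members as a whole lay close to the same level in WWv and WT cells. At an adjusted p under 0.05, 7 of 92 (7.61%) were called, 2 higher and 5 lower, where 28.2% of all tested genes were called, 12.8% higher and 15.4% lower. The median log2 fold change of the nuclear members was 0.03, and that of all tested genes was −0.01. Together they took 0.553 to 0.606% of the counts in WWv and 0.556 to 0.648% in WT. The 95% interval of the difference lay inside 1.5-fold in both directions for 84 of 92 nuclear members (91.3%), against 61.1% of all tested genes; this limit was chosen after the values were seen, and well counted genes have narrower intervals. None of the 7 calls reached 2-fold.

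**Figure D1:**
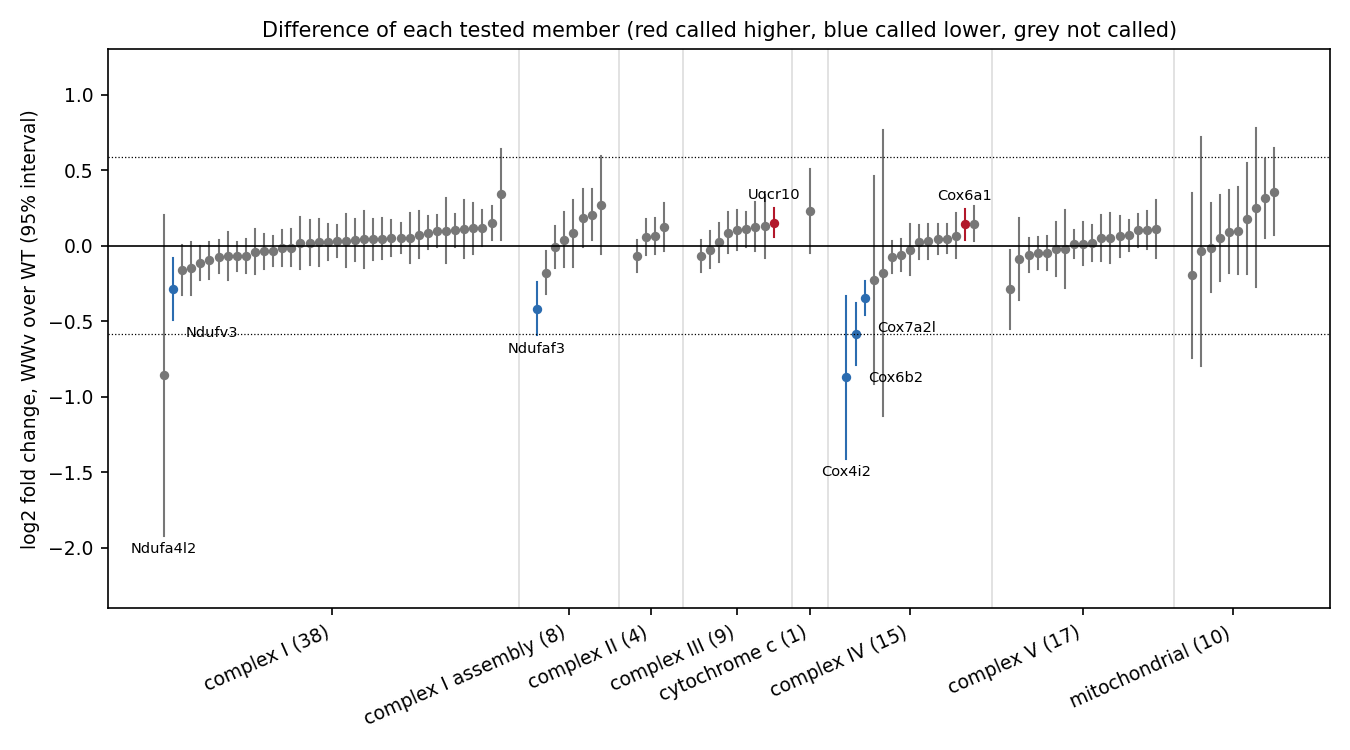
Log2 fold change of WWv over WT for each tested member, grouped by complex with the number tested in brackets, with its 95% interval; dotted lines mark 1.5-fold either way. Most points lie inside the dotted lines in every complex, and the called members that lie farthest below 0 are Cox4i2 and Cox6b2 of complex IV.

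Complex I, the NADH dehydrogenase, had 38 nuclear subunit genes in the table, all tested, of which 1 was called, lower, and the median log2 fold change was 0.03. Ndufv3, an accessory subunit of the NADH-binding arm, had 41.1, 38.5, 38.3, 42.1 and 40.3 CPM in WWv libraries 1 to 5, against 50.8, 37.3, 47.6, 53.6 and 55.2 CPM in WT libraries 1 to 5. The groups overlapped through WT 2, the lowest of all 10 libraries, and the log2 fold change was −0.29 ± 0.09 (SE, adjusted p = 0.0399). That call was lost in 9 of 10 fits that left out 1 library, all except the one without WT 2 (adjusted p = 0.0502 to 0.0936 in the 9 fits). The largest uncalled difference was in Ndufa4l2, a paralogue of Ndufa4 induced by low oxygen. It had 17.6, 18.4, 29.2, 24.6 and 42.2 CPM in WWv, against 40.4, 7.44, 42.7, 68.7 and 80.5 CPM in WT, with WT 2 again the lowest of all libraries. Its log2 fold change was −0.86 ± 0.48 (adjusted p = 0.204), and without WT 2 it was −1.13 (adjusted p = 0.00672).

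Ndufa4, a small subunit that is now placed with complex IV, had the highest level per length among these 38 genes, at 173 CPM per kb of transcript in WWv and 191 CPM per kb in WT. The log2 fold change of Ndufa4 was −0.15 ± 0.08 (adjusted p = 0.184). Ndufb2 had the lowest, 2.01 CPM per kb in WWv and 2.11 in WT, over an annotated principal transcript of 4371 bases. The median of the 38 genes was 35.5 CPM per kb in both groups.

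Of the 8 Ndufaf genes, which help to build complex I and are not part of the finished enzyme, 1 was called, lower. Ndufaf3, which acts early in the assembly, had 5.40, 5.95, 5.37, 5.10 and 5.90 CPM in WWv, against 8.14, 6.71, 7.64, 7.50 and 7.01 CPM in WT. No WWv library reached the lowest WT library, and the log2 fold change was −0.42 ± 0.08 (adjusted p = 0.00439). Groups that did not overlap were seen in 5 of 92 nuclear members, 2 with WWv above and 3 with WWv below, beside 15.9% of all tested genes (8.03% above, 7.84% below). The levels per length of the Ndufaf genes were low, from 3.45 CPM per kb in WWv and 2.85 in WT for Ndufaf6 up to 19.4 and 16.9 for Ndufaf2, whose exons overlap an antisense-strand RNA over 65.7% of their length and whose count is therefore uncertain.

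Succinate dehydrogenase, complex II, had 0 of 4 members called by edgeR, DESeq2 or limma-voom. It had 0 at an unadjusted p under 0.05, beside 6236 of all 15181 tested genes. Sdhb, its iron-sulfur subunit, had the smallest p, with 56.5, 50.7, 53.1, 56.5 and 49.3 CPM in WWv, against 48.6, 55.5, 48.0, 42.2 and 50.2 CPM in WT. The groups overlapped, and the log2 fold change was 0.12 ± 0.07 (adjusted p = 0.222), and 0.17 (adjusted p = 0.0406) without WT 2. Per length, the 4 genes ran from 24.9 CPM per kb in WWv and 26.1 in WT (Sdhc, a membrane anchor) to 53.8 and 51.5 (Sdha, the flavoprotein that binds succinate).

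Complex III, which hands electrons from ubiquinol to cytochrome c, had 9 nuclear members, all tested, with 1 called higher and a median log2 fold change of 0.10. Uqcr10, a small membrane subunit, had 49.7, 45.6, 47.2, 48.4 and 48.9 CPM in WWv, against 41.9, 40.9, 44.7, 43.9 and 44.4 CPM in WT. The lowest WWv library stood above the highest WT library, by a narrow margin, and the log2 fold change was 0.15 ± 0.04 (adjusted p = 0.0250). When library sizes alone were used for scaling, Uqcr10 was at 0.07 (adjusted p = 0.289), and the median of all genes moved to −0.09. Leaving out WT 1, WWv 4 or WWv 5 also ended the call (adjusted p = 0.0594 to 0.0619). Per length, the complex III genes ran from 28.6 CPM per kb in WWv and 26.6 in WT (Uqcrfs1, the Rieske iron-sulfur protein) to 147 and 154 (Uqcrh, the hinge protein). Cycs, cytochrome c itself, had 51.5, 44.7, 45.5, 44.9 and 42.1 CPM in WWv, against 38.7, 51.3, 42.2, 30.3 and 32.7 CPM in WT. WT 2 was the highest WT library for Cycs, whose log2 fold change was 0.23 ± 0.13 (adjusted p = 0.197) with all libraries and 0.35 (adjusted p = 0.0121) without WT 2. Cycs shares 26.1% of its 50-base words with other genes, mostly with Gm10053, so its count is uncertain.

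Complex IV, cytochrome c oxidase, held 4 of the 7 calls among 15 tested nuclear genes, 1 higher and 3 lower, a share of 26.7% beside 28.2% of all tested genes. Cox4i2, the isoform of subunit 4 made in lung and under low oxygen, had 2.36, 2.44, 2.38, 3.40 and 3.34 CPM in WWv, against 5.53, 2.35, 5.09, 6.30 and 6.25 CPM in WT. The groups overlapped only through WT 2, which lay at the level of WWv. The log2 fold change of Cox4i2 was −0.87 ± 0.25 (adjusted p = 0.0230), and −1.05 (adjusted p = 0.000223) without WT 2; without WT 1, WT 4, WT 5, WWv 2 or WWv 3 the adjusted p was 0.0514 to 0.0564. Cox4i1, the general isoform, made up 98.1 to 98.7% of the subunit 4 level per length in WWv and 96.3 to 98.6% in WT, and its log2 fold change was −0.06 ± 0.05 (adjusted p = 0.373).

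Cox6b2, the subunit 6b isoform known from testis, had 8.03, 6.99, 7.58, 6.14 and 6.70 CPM in WWv, against 11.5, 9.12, 10.1, 10.9 and 11.5 CPM in WT. All WWv libraries lay below all WT libraries, at a log2 fold change of −0.58 ± 0.09 (adjusted p = 0.00186). Per length, Cox6b2 made up 4.18 to 5.34% of the 2 isoforms in WWv and 6.53 to 7.85% in WT. The widespread isoform Cox6b1 was at 238 ± 8.29 CPM per kb in WWv and 231 ± 11.3 CPM per kb in WT (SD, n = 5 each), with a log2 fold change of 0.04 ± 0.05 (adjusted p = 0.488).

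Cox7a2l, also called SCAF1, resembles subunit 7a and binds complexes III and IV together in supercomplexes. Its levels were 56.8, 57.2, 53.9, 60.3 and 58.3 CPM in WWv, against 73.6, 66.2, 71.7, 77.0 and 75.9 CPM in WT. The groups did not overlap, and the log2 fold change was −0.35 ± 0.05 (adjusted p = 0.00127). Cox7a2, the subunit it resembles, was not called, with a log2 fold change of 0.14 ± 0.05 (adjusted p = 0.0610). As a share of the summed level per length of Cox7a2, Cox7a2l and the heart and muscle isoform Cox7a1, Cox7a2l took 30.2 to 34.0% in WWv and 39.3 to 42.4% in WT. Cox7a2l shares 13.8% of its 50-base words with the processed pseudogene Gm6969.

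Cox6a1, the widespread isoform of subunit 6a, was the other member called higher. It had 158, 157, 150, 162 and 153 CPM in WWv, against 142, 129, 143, 146 and 147 CPM in WT, without overlap, and WT 2 was the lowest library. The log2 fold change was 0.14 ± 0.05 (adjusted p = 0.0446), and the call was lost in 14 of 22 alternative settings. These include upper quartile scaling (adjusted p = 0.0726) and 8 of 10 fits that left out 1 library, all but those without WT 2 or WWv 3 (adjusted p = 0.0521 to 0.104). The muscle isoforms Cox6a2 and Cox7a1 were scarce. Cox6a2 was at 0.876 ± 0.0403 CPM per kb in WWv and 0.993 ± 0.555 in WT. Cox7a1 was at 0.728 ± 0.288 CPM per kb in WWv and 0.856 ± 0.284 in WT (SD, n = 5 each for both genes). Cox8b, Cox8c and Cox7b2 had 0 counts in all 10 libraries. Cox8a, the general isoform of subunit 8, was at 180 ± 4.00 CPM per kb in WWv and 174 ± 8.74 in WT.

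**Figure D2:**
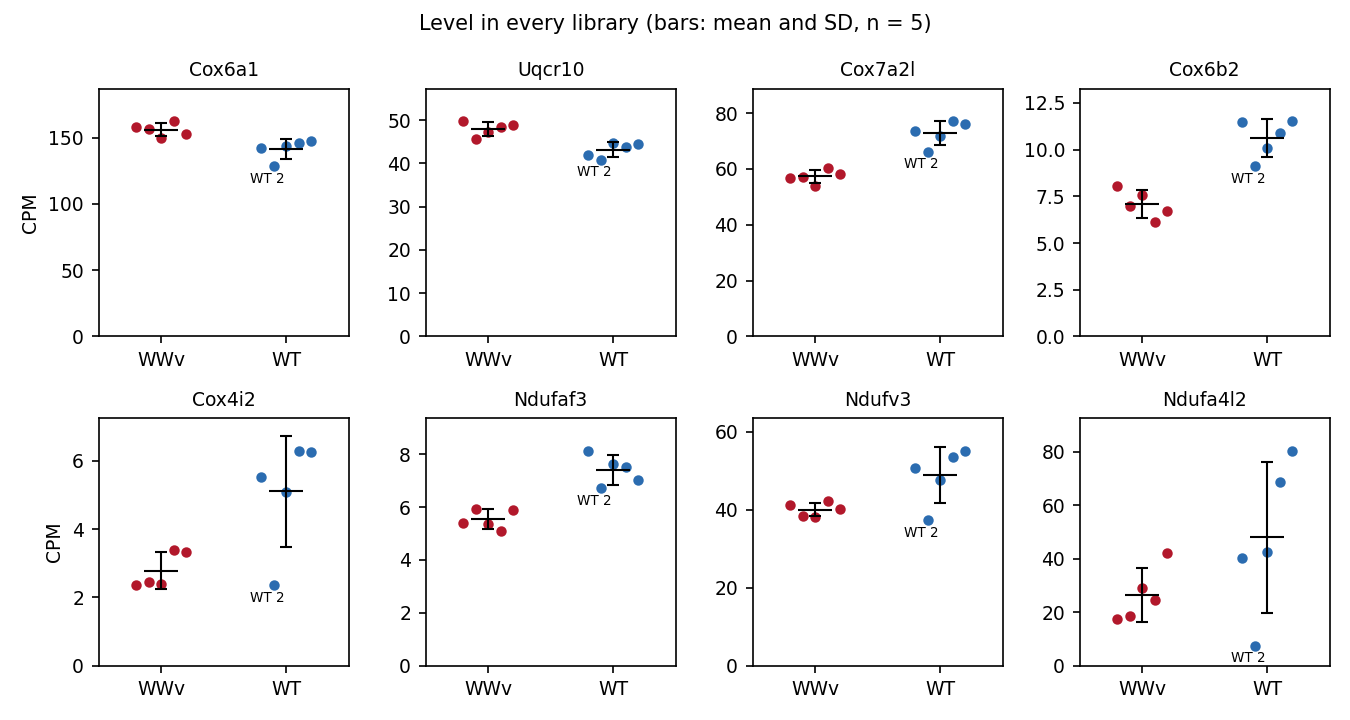
CPM of the 7 called nuclear members and of Ndufa4l2 in every library, WWv at left and WT at right, with bars for the mean and SD (n = 5) and WT 2 marked. For Cox4i2, Ndufv3 and Ndufa4l2, WT 2 lies at or below the WWv libraries, while Cox7a2l, Cox6b2 and Ndufaf3 keep the groups apart.

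ATP synthase, complex V, had 0 of 17 tested members called by edgeR, DESeq2 or limma-voom, and its median log2 fold change was 0.01. It had 1 at an unadjusted p under 0.05, beside 6236 of all 15181 tested genes. Atp5b, the catalytic beta subunit, had the highest level per length of all nuclear members, 431 CPM per kb in WWv and 399 in WT; its CPM ran from 767 to 881 with a median of 822 in WWv and from 652 to 934 with a median of 755 in WT. The highest of all 10 values for Atp5b was that of WT 2. Atp5s had the lowest level per length, 2.91 CPM per kb in WWv and 2.95 in WT. The smallest p belonged to Atp5l, subunit g of the membrane part, with 20.7, 16.2, 16.2, 18.3 and 19.1 CPM in WWv, against 21.5, 16.2, 23.5, 23.8 and 25.6 CPM in WT. Its log2 fold change was −0.29 ± 0.12 (adjusted p = 0.0917), with overlap through WT 2, and −0.38 (adjusted p = 0.00338) without that library. A second row under the symbol Atp5o, ENSMUSG00000116933, had 0 counts throughout.

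The counts of nuclear calls turned on single libraries, and so did the share called among all tested genes. Without WT 2, 27 of 92 nuclear members were called, 18 higher and 9 lower, or 29.3% beside 46.2% of all tested genes. The members called higher then were Cyc1, Uqcrc1, Uqcrc2, Uqcrfs1 and Uqcr10 of complex III, Sdha and Sdhb of complex II, Atp5b, Atp5c1 and Atp5g3 of complex V, and Cycs. With them were Ndufa8, Ndufa9 and Ndufs7 of complex I, the assembly factors Ndufaf2, Ndufaf4 and Ndufaf6, and Cox6a1 of complex IV. Those called lower were Ndufa4l2, Ndufa4, Ndufaf7 and Atp5l beside the 5 called with all libraries. Leaving out WT 2 and WWv 1 together gave 20 calls (21.7% beside 46.4%), 9 higher and 11 lower. Leaving out WT 1 gave 3 (3.26% beside 21%). Without WT 4, WT 5, WWv 2, WWv 4 or WWv 5 there were 4 each (4.35%). In the same order, 20.9%, 21.5%, 19.5%, 20.3% and 24.2% of all tested genes were called. Cox6b2, Cox7a2l and Ndufaf3 were called lower in each of these fits.

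**Figure D3:**
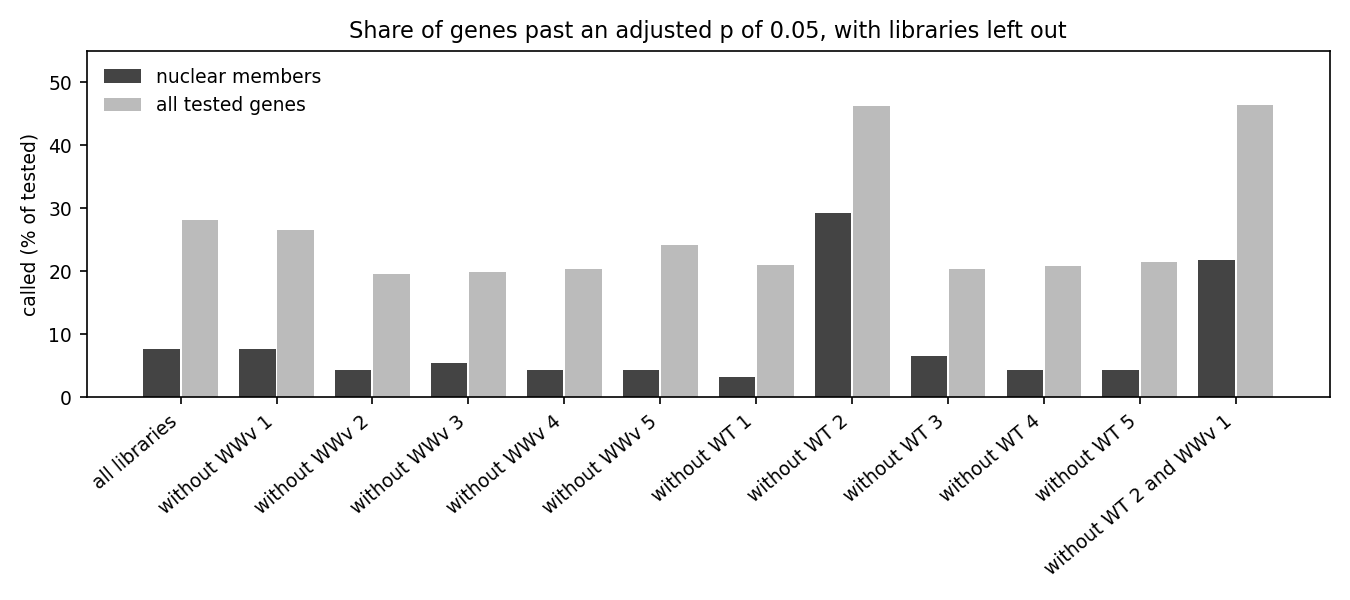
Share of tested genes past an adjusted p of 0.05 with all libraries and with libraries left out, for the nuclear members (dark bars) and for all tested genes (light bars). The dark bar is below the light bar in each fit shown, and both are highest in the fits without WT 2.

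In mitochondrial DNA, 13 members were counted and 0 of 10 tested were called, with a median log2 fold change of 0.10. At an unadjusted p under 0.05 there were 2, mt-Nd1 and mt-Nd2, beside 6236 of all 15181 tested genes. DESeq2 called the same 2 genes higher while limma-voom called 0. The 13 genes took 1.63 to 2.36% of the counts in WWv and 1.59 to 2.32% in WT. Their levels fell into separate ranges. The genes mt-Nd1, mt-Nd2, mt-Nd4, mt-Nd5 and mt-Nd6 of complex I, mt-Cytb of complex III and mt-Co1 of complex IV held 99.992% of the mitochondrial member counts, and the other 6 together had 716 counts over all 10 libraries.

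The scarce genes were mt-Co2 with 237 counts over all libraries, mt-Atp6 with 198, mt-Co3 with 157, mt-Nd4l with 62, mt-Atp8 with 50 and mt-Nd3 with 12, whereas the neighbouring mt-Co1 had 3357094. Of these, mt-Co2, mt-Atp6, mt-Co3, mt-Nd3 and mt-Nd4l share between 98.0 and 100% of their 50-base words with other annotated genes. A run of pseudogenes on chromosome 1 holds the copies. Gm28661 matched mt-Co2 at 681 of 681 aligned bases, Gm10925 matched mt-Atp6 at 678 of 678, Gm28437 matched mt-Co3 at 783 of 783 and Gm10222 matched mt-Nd4l at 294 of 294, while Gm28438 differed from mt-Nd3 at 1 of 345 bases. The pseudogenes had few counts as well, 196 for Gm28661, 265 for Gm10925, 174 for Gm28437, 90 for Gm10222 and 440 for Gm28438.

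For mt-Atp8 no such word was shared with another annotated gene, but 21.1% of its bases overlap mt-Atp6. Sequence outside annotated transcripts was not searched, so a copy of mt-Atp8 there would not have been seen. The abundant genes had smaller shared parts: 0.0% for mt-Nd1, mt-Nd6 and mt-Cytb, 7.6% for mt-Nd5, 8.2% for mt-Nd2, 51.1% for mt-Co1 and 62.2% for mt-Nd4. How the deposited counting treated reads that fit several places was not given in the sources used here, and its part in the low counts was not tested. The levels of the 6 scarce genes, and of mt-Co1 and mt-Nd4 per length, are therefore uncertain.

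Between the groups, the scarce genes were compared on few counts. For mt-Co2 the raw counts were 34, 22, 15, 19 and 23 in WWv, against 34, 11, 19, 43 and 17 in WT, a log2 fold change of −0.04 ± 0.34 (adjusted p = 0.946). It was −0.19 ± 0.25 for mt-Co3 (adjusted p = 0.583) and 0.25 ± 0.24 for mt-Atp6, a subunit of the proton channel of complex V (adjusted p = 0.450). A difference was not detectable at this depth, and mt-Nd3, mt-Nd4l and mt-Atp8 had too few counts to be tested.

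**Figure D4:**
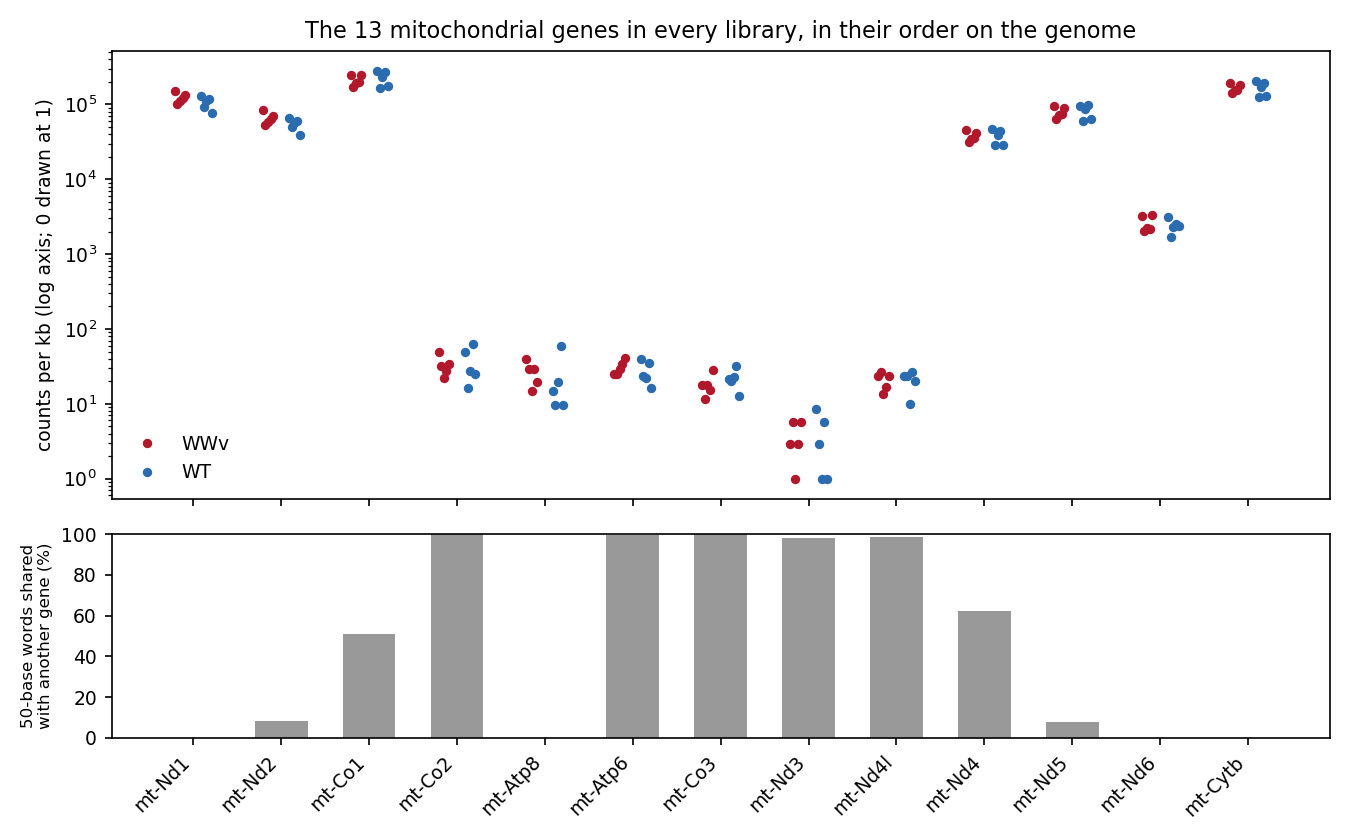
Above, counts per kb of the 13 mitochondrial genes in each library on a log axis (WWv left, WT right of each position, counts of 0 drawn at 1); below, the share of each gene's 50-base words found in another annotated gene. The 6 low genes lie next to each other on the genome, from mt-Co2 to mt-Nd4l, and 5 of them share at least 98.0% of their words.

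Among the abundant genes, mt-Nd1 and mt-Nd2, the first protein coding genes after the ribosomal RNAs, had the smallest p. The subunit gene mt-Nd1 had 3200, 2250, 2563, 2525 and 2460 CPM in WWv, against 2577, 1900, 2097, 2166 and 1722 CPM in WT. Its log2 fold change was 0.31 ± 0.12 (unadjusted p = 0.0242, adjusted p = 0.0725), and the groups overlapped. For mt-Nd2 the levels were 1965, 1280, 1442, 1419 and 1390 CPM in WWv, against 1429, 1125, 1153, 1202 and 938 CPM in WT, with WWv 1 far above the rest. The log2 fold change of mt-Nd2 was 0.36 ± 0.13 (unadjusted p = 0.0196, adjusted p = 0.0627). Without WT 2 and WWv 1 it was 0.19 for mt-Nd1 and 0.22 for mt-Nd2, and without WT 1 both were called higher, at 0.40 (adjusted p = 0.0317) and 0.44 (adjusted p = 0.0368) in the same order.

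The catalytic subunit gene mt-Co1 had 8501, 6061, 7162, 6641 and 7185 CPM in WWv, against 8969, 5578, 7003, 7870 and 6460 CPM in WT, a log2 fold change of −0.01 ± 0.13 (adjusted p = 0.950). For mt-Cytb, the cytochrome b of complex III, it was 0.09 ± 0.12 (adjusted p = 0.604), for mt-Nd5 0.05 ± 0.13 (adjusted p = 0.805) and for mt-Nd4 0.10 ± 0.13 (adjusted p = 0.591). The gene mt-Nd6, the one member on the other strand, was lower by far than its neighbours at 24.2 to 37.6 CPM in WWv and 18.7 to 34.2 CPM in WT, with a log2 fold change of 0.18 ± 0.17 (adjusted p = 0.445). Levels of the abundant genes moved together from library to library: mt-Co1, mt-Cytb and mt-Nd5 were highest in WWv 1 among WWv and in WT 1 among WT, and lowest in WWv 2 and in WT 2.

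Ratios of counts within a library remove the shared movement and the scaling. The ratio of mt-Nd1 to mt-Co1 was 0.376, 0.371, 0.358, 0.380 and 0.342 in WWv, against 0.287, 0.341, 0.299, 0.275 and 0.267 in WT, so the groups did not overlap although the margin at WT 2 was small. The ratio of mt-Nd2 to mt-Co1 ran from 0.194 to 0.231 in WWv and from 0.145 to 0.202 in WT, overlapping through WT 2. The ratio of mt-Cytb to mt-Co1 was 0.555 to 0.616 in WWv and 0.540 to 0.554 in WT. Over the 21 pairs of the 7 abundant genes, 4 ratios did not overlap between the groups, those of mt-Nd1 to mt-Nd4, mt-Nd5 and mt-Co1 and that of mt-Cytb to mt-Co1, each higher in WWv. All 4 margins were small. The lowest WWv and highest WT ratios were 2.235 and 2.233, 0.7968 and 0.7952, 0.3424 and 0.3407, and 0.5552 and 0.5537 in that order. Of single tested genes, 15.9% did not overlap, but the pairs reuse the same 7 genes and are not directly comparable with single genes.

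The ribosomal RNAs of the same strand, which are not members, were set against mt-Co1 in the same way. The ratio of mt-Rnr2, the large ribosomal RNA, to mt-Co1 was 0.0838, 0.0621, 0.0635, 0.0752 and 0.0737 in WWv, against 0.0432, 0.0519, 0.0418, 0.0340 and 0.0363 in WT, without overlap. For mt-Rnr1, the small ribosomal RNA, it was 0.0188 to 0.0290 in WWv and 0.0136 to 0.0207 in WT, with overlap. In the edgeR fit of single genes, mt-Rnr2 was called higher, at a log2 fold change of 0.81 ± 0.17 (adjusted p = 0.00676), although its CPM overlapped between the groups. The change of mt-Rnr1 was 0.47 ± 0.17 (adjusted p = 0.0635), not called. These ratios were chosen after the values were seen and carry no test; the part of the sequence that mt-Co1 shares with nuclear copies in them was not tested.

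**Figure D5:**
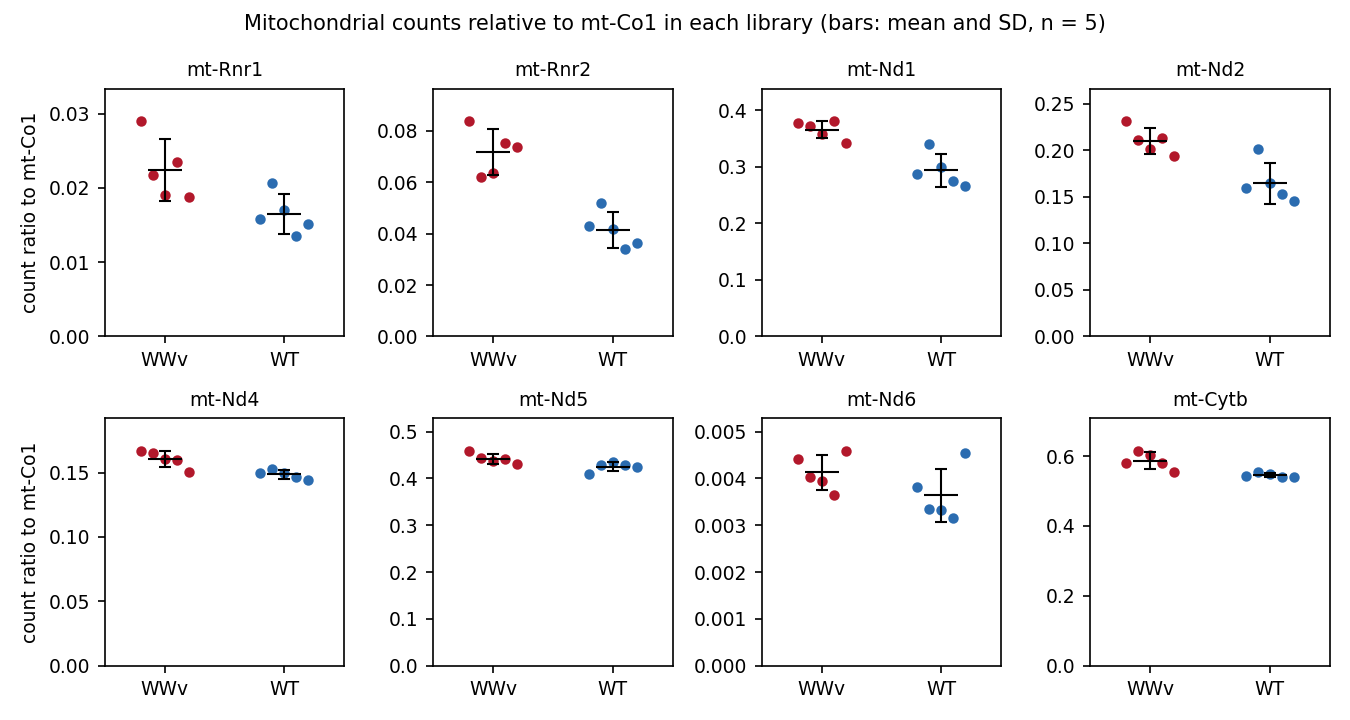
Counts of 2 ribosomal RNAs and of 6 abundant mitochondrial members divided by those of mt-Co1 in the same library, WWv at left and WT at right, with bars for the mean and SD (n = 5). The groups are apart for mt-Rnr2 (0.0621 to 0.0838 in WWv, 0.0340 to 0.0519 in WT) and, by small margins, for mt-Nd1 and mt-Cytb. The groups overlap for the others.

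Other genes of the respiratory chain were taken from lists drawn up by function. Of 52 tested assembly factors and inhibitors outside the symbol rule, 4 were called higher and 7 lower, or 21.2% beside 28.2% of all tested genes, with a median log2 fold change of 0.01. Without WT 2 there were 8 higher and 10 lower, in a fit that called 46.2% of all tested genes. Cox17, the copper chaperone that supplies complex IV, had 1.82, 1.02, 1.23, 0.904 and 1.60 CPM in WWv, against 4.32, 2.52, 3.96, 5.07 and 3.86 CPM in WT, without overlap, at a log2 fold change of −1.58 ± 0.23 (adjusted p = 0.00124). Foxred1, which helps to assemble complex I, fell by 0.38 ± 0.10 on the log2 scale (adjusted p = 0.0154). Sdhaf3, an assembly factor of complex II, rose by 0.36 ± 0.10 (adjusted p = 0.0246).

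Factors that act on mitochondrial DNA and RNA had 1 of 31 called higher and 2 lower, or 9.68% beside 28.2% of all tested genes. Without WT 2 there were 5 higher and 4 lower. Mgme1, a nuclease of mitochondrial DNA, had a log2 fold change of 0.33 ± 0.10 (adjusted p = 0.0376), Mterf3, a repressor of mitochondrial transcription, −0.20 ± 0.05 (adjusted p = 0.0176), and Ssbp1, the single-stranded DNA binding protein, −0.19 ± 0.06 (adjusted p = 0.0438). Among 10 tested nuclear factors and coactivators, 1 was higher and 3 lower, or 40% beside the same 28.2%. Without WT 2 there were 4 higher and 3 lower. Esrrg, a nuclear receptor of oxidative tissues, was scarce, at 0.112 to 0.401 CPM with a median of 0.232 in WWv and 0.302 to 2.36 CPM with a median of 1.39 in WT. It overlapped through WT 2, with a log2 fold change of −2.50 ± 0.51 (adjusted p = 0.00584). Ppard fell by 0.25 ± 0.04 and Gabpb2, a subunit of GABP, by 0.23 ± 0.07, and Yy1 rose by 0.20 ± 0.05 (adjusted p = 0.00302, 0.0253 and 0.0201 in that order).

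Of 14 tested genes of the tricarboxylic acid cycle, which feeds electrons to complexes I and II, 1 was higher and 1 lower. That is 14.3% beside 28.2% of all tested genes, and without WT 2 there were 6 higher and 1 lower. The alpha subunit gene of NAD-dependent isocitrate dehydrogenase, Idh3a, had a log2 fold change of 0.43 ± 0.11 (adjusted p = 0.0144), and the gamma subunit gene Idh3g one of −0.16 ± 0.05 (adjusted p = 0.0286). Ubiquinone genes gave 1 higher and 1 lower of 13 (15.4%). Coq10b, which binds ubiquinone, had 45.1, 48.1, 54.0, 48.7 and 46.9 CPM in WWv, against 33.7, 34.4, 34.5, 34.8 and 34.5 CPM in WT, far apart, at a log2 fold change of 0.50 ± 0.05 (adjusted p = 0.000311); Coq8b fell by 0.36 ± 0.11 (adjusted p = 0.0309). Among 7 tested carriers, porins and uncouplers, 3 were called (42.9%). Slc25a4, the ADP/ATP carrier of muscle, rose by 0.15 ± 0.04 (adjusted p = 0.0237), Vdac2 rose by 0.21 ± 0.07 (adjusted p = 0.0355) and Ucp2 fell by 0.81 ± 0.20 (adjusted p = 0.0124).

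Mitochondrial ribosomal protein genes had 5 of 77 called higher and 1 lower, or 7.79% beside 28.2% of all tested genes. Their median log2 fold change was 0.06, and Mrps22, the largest rise, stood at 0.42 ± 0.13 (adjusted p = 0.0382). The next were Mrps31 at 0.22 ± 0.07 (adjusted p = 0.0447), Mrpl41 at 0.21 ± 0.06 (adjusted p = 0.0238) and Mrpl32 at 0.19 ± 0.05 (adjusted p = 0.0268). Without WT 2, 23 of the 77 were called higher and 4 lower. DESeq2 with all libraries called 8 higher and 2 lower, in a fit that called 32.9% of all tested genes. Translocase genes had 1 of 23 higher, Timm17a at 0.31 ± 0.07 (adjusted p = 0.0126), and 1 lower, Timm44 at −0.25 ± 0.06 (adjusted p = 0.0122), or 8.7% called. Without WT 2 there were 7 higher and 3 lower, and DESeq2 with all libraries called 4 higher and 2 lower. Each of these fits without WT 2 is the one that called 46.2% of all tested genes.

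Genes that act on mitochondria and are induced by low oxygen had 6 of 8 tested called, all 6 lower, or 75% beside 28.2% of all tested genes, with a median log2 fold change of −0.69; Cox4i2 and Ndufa4l2 are on this list too. Bnip3, which drives removal of mitochondria, had 23.7, 17.8, 22.2, 21.7 and 26.0 CPM in WWv, against 55.9, 35.9, 54.6, 66.7 and 78.0 CPM in WT, a log2 fold change of −1.39 ± 0.18 (adjusted p = 0.000712) without overlap. Its transcripts share 47.2% of their 50-base words with other genes. Pdk1, which holds pyruvate dehydrogenase back, had 19.1, 18.6, 19.0, 22.2 and 24.6 CPM in WWv, against 41.1, 22.8, 42.5, 53.4 and 63.0 CPM in WT, and overlapped through WT 2 at −1.11 ± 0.22 (adjusted p = 0.00499). Mxi1 fell by 0.53 ± 0.10 (adjusted p = 0.00489), and Higd1a, which binds complex IV, by 0.39 ± 0.13 (adjusted p = 0.0497). Oxygen was not recorded in the labels.

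Calls of these list genes rested on single libraries in part. Leaving out each library in turn kept the calls of Cox17, Foxred1, Mterf3, Esrrg, Ppard, Idh3a, Coq10b, Ucp2, Timm17a, Timm44, Bnip3, Pdk1 and Mxi1 in all 10 fits. It ended those of Mrpl41 in 1 fit, Yy1 in 4, Sdhaf3 and Idh3g in 5, Gabpb2, Slc25a4 and Mrpl32 in 6, Coq8b and Mrps31 in 7, Mgme1 and Ssbp1 in 8, and Vdac2, Mrps22 and Higd1a in 9, with an adjusted p of at most 0.116.

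Markers of other cells that could be in an aortic culture moved with the groups too. Fibroblast markers took 0.0214 to 0.0330% of the counts in WWv and 0.0405 to 0.0545% in WT. Of these markers, 4 of 6 were called lower, beside 15.4% of all tested genes. The 1 marker above 0 had a log2 fold change of 0.62 and was not called. Without WT 2, 1 was called higher and 5 lower, in the fit that called 46.2% of all tested genes. Lum was at a log2 fold change of −4.02 ± 0.66 (adjusted p = 0.00209), Dpt at −2.005 ± 0.27 (adjusted p = 0.000859), Dcn at −1.76 ± 0.48 (adjusted p = 0.0206) and Pdgfra at −0.64 ± 0.13 (adjusted p = 0.00631). The call of Dcn was lost in 1 of 10 fits that left out 1 library, the one without WWv 2 (adjusted p = 0.0534). Of the smooth muscle markers, Myh11 was at 1.03 ± 0.16 (adjusted p = 0.00178), Acta2 at 0.75 ± 0.10 (adjusted p = 0.000676), Tagln at 0.73 ± 0.08 (adjusted p = 0.000461) and Cnn1 at 0.70 ± 0.13 (adjusted p = 0.00324).

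Markers of brown fat together took 0.000948 to 0.00123% of the counts in WWv and 0.00155 to 0.00401% in WT, and markers of white fat 0.000936 to 0.00136% and 0.00204 to 0.00315% in the same order, neither with overlap. Of the brown fat list, Ucp1 and Cidea had at most 0.0225 and 0.0481 CPM in WWv and 0.0762 and 0.0862 CPM in WT. Dio2 of the brown and Fabp4 of the white fat list were lower in WWv, at log2 fold changes of −2.65 ± 0.41 (adjusted p = 0.00156) and −1.13 ± 0.14 (adjusted p = 0.000676). Of the brown fat list 2 of 6 markers were tested, and the other tested marker had a log2 fold change of 0.31 and was not called. Without WT 2, 1 brown fat marker was called higher and 1 lower. Of the white fat list 1 of 6 was tested, Fabp4, which made up nearly all of the white fat total, so that total describes 1 gene. Among muscle genes of other types, Tnnt2 and Acta1 were called higher and Tnni3 and Tnnt3 lower. Of 7 tested endothelial markers (Tek had the smallest p) and 4 tested macrophage markers (Csf1r) 0 were called by edgeR, and DESeq2 called 0 and 1. At an unadjusted p under 0.05 there were 0 and 2, beside 6236 of all 15181 tested genes. Without WT 2, 4 endothelial markers were called higher and 2 macrophage markers lower, in the fit that called 46.2% of all tested genes. The part of these cells in the differences above was not tested, and in bulk RNA fewer cells of a kind and less RNA per cell cannot be told apart.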

How the data were processed

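Messenger RNA was measured in 10 libraries, 5 WWv and 5 WT, grouped by their titles. The submitters' processing notes name bcl2fastq 2.17, Trim Galore 0.4.3, STAR 2.5.2a and the build mm10. How reads were counted, on which strand and against which annotation is not given in the sources used here. The authors deposited raw counts per gene in whole numbers, not normalized. Genes were named by GENCODE M21 on GRCm38, the assembly of mm10: 54409 IDs matched without the version and 37 did not.

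The group was the single factor of a quasi-likelihood fit of the counts in edgeR 4.0.16 (R 4.3.3), two-sided, with TMM scaling and filterByExpr at a minimum count of 10. P-values were adjusted by Benjamini-Hochberg over 15181 genes, and a gene was called at an adjusted p under 0.05. The standard error was the absolute log2 fold change over the square root of F. Level per length divides CPM by the longest principal transcript. Shared sequence means words of 50 bases present in a transcript of another gene. Totals of 42040255 to 53863661 counts set the precision; edgeR estimated a common coefficient of variation between libraries of 0.161.

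Named were Kit, every mitochondrial member, each called nuclear member, per complex the member with the smallest p where none was called and those with the highest and lowest level per length, the isoform families, called genes of each other list (at most 4, the largest changes), and members that an outlier test marked, except that 1 member's outlier result is not reported here. Ribosomal RNAs, nuclear copies, and the members and markers named only for left-out libraries or for their absence were added after their values were seen. The members and lists were chosen with earlier results of these data known. Alternatives were RLE, upper quartile and library-size scaling, mitochondrial genes left out, 2 other filters, DESeq2 1.42.0, limma-voom (limma 3.58.1), the replicate number as a block, an exon length trend and libraries left out; an exon length and GC trend was added after seeing the data. The procedure was checked on simulated data, in which far fewer genes differed and no library stood apart as WT 2 did.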

Additional observations from a re-analysis of the deposited data

Results flagged for a closer look

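In 16 of 208 sets of 5 libraries, 1 library lay far from the other 4 by Dixon's test, which chance gives in about 1 of 20 sets. WT 2 was the library in 5 of them and WWv 1 in 5. WT 2 was high for Atp5c1 (125.9 CPM, others 94.7 to 103.5), Ndufs7 (26.69, others 23.16 to 24.06) and Uqcrfs1 (41.07, others 34.38 to 35.29), and low for Cox6a1 (128.6, others 142.4 to 147.1) and Ndufa11 (53.43, others 57.85 to 59.5). WWv 1 was high for small subunits of complexes I and IV, namely Ndufa3 (50.46 CPM, others 44.95 to 46.26), Cox6c (81.72, others 71.15 to 72.83), Ndufa6 (30.9, others 23.64 to 25.67) and Ndufa1 (33.22, others 27.35 to 28.78), and for mt-Nd2 (1965, others 1280 to 1442).

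The other 6 were spread over 4 libraries. WWv 5 was low for Ndufs1 (56.79 CPM, others 63.4 to 64.49) and Ndufs3 (27.88, others 29.75 to 30.31). WWv 2 was low for Atp5f1 (123.8, others 132.9 to 135.7) and Atp5mpl (30.63, others 35.1 to 36.72). WT 4 was low for Sdhc (76.11, others 83.33 to 85.94), and WT 3 was high for Ndufs4 (41.35, others 38.27 to 38.98).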

How the results depend on the processing

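Cox6b2, Cox7a2l and Ndufaf3 were called lower in all 22 alternatives. The 7 nuclear calls, 2 higher and 5 lower, came from a fit that called 28.2% of all tested genes. They became 15 with library-size scaling (0 higher, 15 lower, median −0.055), beside 30.2% of all tested genes. With an exon length trend removed there were 11 (7 higher), beside 28.3%. Without WT 2 and WWv 1 there were 20 (9 higher, 11 lower), beside 46.4%. Higher calls numbered 1 with upper quartile scaling or a filter at 1 CPM, 0 with no filter, 4 with DESeq2 and 6 with length and GC trends removed, and limma-voom gave 3 lower. In the same order, these fits called 27.9%, 30.7%, 12.1%, 32.9%, 28.3% and 27.4% of all tested genes. Leaving out 1 library at a time gave 3 to 27 nuclear calls, 0 to 18 higher and 3 to 9 lower, and 0 to 2 mitochondrial calls, all higher. The share of all tested genes called moved as well, from 19.5% without WWv 2 to 46.2% without WT 2. The mitochondrial count was 2, both higher, with DESeq2 and with either trend removed.

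The replicate block gave 0 higher and 5 lower nuclear and 2 higher mitochondrial calls, in a fit that called 24% of all tested genes. The labels do not say whether same-numbered libraries belong together. Their deviations correlated from −0.092 to 0.308 and none matched its own number best, which does not settle whether they were handled together.

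Signs of uncalled members turned, and the cause was not tested: mt-Co1 to 0.014 and 0.012 with the trends removed and −0.089 to 0.08 with 1 library left out; mt-Co2 to 0.045 with limma-voom, 0.021 with the replicate block and −0.242 to 0.207 with 1 left out; Cox6a2 to 0.187 with limma-voom and −0.458 to 0.015 with 1 left out. Library-size scaling gave −0.032 for mt-Nd5, −0.039 for Cox6b1 and −0.036 for Cox8a. Without WT 2 and WWv 1, mt-Nd4 was at −0.065, mt-Nd5 at −0.121, mt-Nd6 at −0.025 and mt-Cytb at −0.052, and mt-Nd5 ran from −0.04 to 0.126 with 1 left out.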
